A study of Mus musculus with 103 samples.

Results

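The genes described here encode the proteasome. They were taken by name: every probe set with a single gene symbol made of Psm, a letter from a to g and a digit. The rule found 48 of the 12394 genes that have such a probe set, with 85 of 20393 probe sets (22690 in all on the array). Psmc3ip and Psme3ip1 match the rule by spelling but are not proteasome components, so they were kept apart, which left 46 genes with 83 probe sets. They comprise 7 genes of the alpha ring and Psma8, its testis form, 4 beta subunits without catalytic activity, 3 constitutive catalytic subunits (Psmb5, Psmb6, Psmb7) and 3 catalytic subunits of the immunoproteasome (Psmb8, Psmb9, Psmb10). The other genes encode 6 ATPases and 11 further subunits of the regulatory particle, 3 of its assembly chaperones, 3 activators, 1 inhibitor and 4 assembly chaperones of the core. Psme2, the partner of Psme1, was not measured on its own, because its probe set carries 2 symbols. The 21 genes with more than 1 probe set were represented by the brightest over all arrays.

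The proteasome degrades ubiquitin-tagged proteins inside a barrel of stacked alpha and beta rings, which a regulatory particle with an ATPase ring opens and feeds. Immune cells and cells exposed to interferon replace the catalytic subunits Psmb5, Psmb6 and Psmb7 by Psmb8, Psmb9 and Psmb10, respectively. The resulting immunoproteasome cuts proteins into peptides that fit MHC class I molecules. Tap1 and Tap2 carry such peptides into the endoplasmic reticulum, and Psmb8 and Psmb9 lie beside the Tap genes in the MHC.

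The series compared protocols that label small amounts of RNA for Affymetrix mouse arrays, on 103 arrays. Universal mouse RNA (a Stratagene pool, 58 arrays) was labelled with the one-cycle kit of Affymetrix at 1 ug (4 arrays), with the two-cycle, Ovation and RiboAmp HS kits from 500 ng down to 50 pg (2 arrays per kit and amount) and with BIIB, a protocol of Biogen Idec, from 5 ng down to 10 pg (4 arrays per amount). Total RNA of 8 tissues from an Ambion panel was labelled once by one-cycle from 1 ug and once by BIIB from 500 pg (16 arrays). The cell arrays, all labelled by BIIB, held T and B cells flow sorted from the spleen of 1 normal mouse, in 6 ratios (2 arrays per ratio at 100 cells and 1 at 500), and sorted cells of a culture called RAW267 in the labels (50 to 10000 cells, 11 arrays). The labels gave no strain, age, sex or treatment and did not say that replicates were separate preparations, so p-values measure only the spread between these arrays. Each tissue had 1 array per protocol, so the tissue fits hold no replicates. Their standard errors and p-values measure how far the 2 protocols disagree on the differences between tissues. Values are MAS5 signals on a linear scale, and differences are on a log2 scale, after a small constant was added to each signal, with the standard error of a limma fit. To be called, a gene needed at least a 2-fold difference and, over all probe sets tested, an adjusted p (Benjamini-Hochberg) below 0.05. Signals of different probe sets are not comparable as levels, so every comparison is within a gene.

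The identity of each source was checked against its markers. Both arrays labelled brain carried liver transcripts and both labelled liver carried brain transcripts. The summed signal of 6 brain markers was 964 and 467 on the arrays labelled brain and 241186 and 493181 on those labelled liver (one-cycle and BIIB). The sum of 7 liver markers was 1782187 and 4193250 on the arrays labelled brain, against 146662 and 192556. These arrays are called "labelled brain" and "labelled liver" throughout, and each tissue result was also computed without them. The other tissues carried their own markers, and lung also carried heart markers (summed signal 85569 and 203405). RAW267 arrays had 0 of 6 B cell markers at a signal of 500 or more and 6 or 7 of 7 myeloid markers. Heart markers also reached 500 on cell arrays, with 6 of 6 on the array of 500 T cells and on the second array of 50 RAW267 cells. Markers of other tissues did so too, with 6 of 7 liver and 5 of 6 brain markers on the array of 300 T and 200 B cells. On the array of 100 RAW267 cells 5 of 7 liver markers did. All 5 embryo markers did on the first arrays of 100 T and of 100 B cells. The source of these signals was not tested.

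The promoter windows of the catalytic subunits and of Psme1 show which regulatory motifs these genes hold. No window was available for Psmb7. Each window runs from 250 bases before to 50 after the transcription start (RefSeq, build GRCm38.p6), and capitals mark 3 motifs where they occur on either strand: the interferon-stimulated response element (GAAA, any 2 bases, GAAA), the interferon gamma activated site TTCNNNGAA and the antioxidant response element core TGACNNNGC. The first group holds the immunoproteasome subunits and Psme1, at chr17:34197945-34198244 (Psmb8, plus strand), chr17:34187281-34187580 (Psmb9, minus strand), chr8:105938343-105938642 (Psmb10, minus strand) and chr14:55578244-55578543 (Psme1, plus strand).
Psmb8: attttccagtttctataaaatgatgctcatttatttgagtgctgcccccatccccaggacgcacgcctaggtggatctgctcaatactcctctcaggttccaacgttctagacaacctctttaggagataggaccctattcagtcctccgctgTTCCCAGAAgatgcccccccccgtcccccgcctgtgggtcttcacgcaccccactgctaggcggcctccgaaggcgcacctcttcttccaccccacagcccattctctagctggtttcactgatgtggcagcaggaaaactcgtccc
Psmb9: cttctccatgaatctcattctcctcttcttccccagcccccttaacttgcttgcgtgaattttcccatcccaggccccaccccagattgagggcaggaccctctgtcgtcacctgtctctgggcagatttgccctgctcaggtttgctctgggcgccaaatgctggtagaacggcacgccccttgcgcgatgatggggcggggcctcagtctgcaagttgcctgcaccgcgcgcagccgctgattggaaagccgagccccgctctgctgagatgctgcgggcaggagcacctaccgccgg
Psmb10: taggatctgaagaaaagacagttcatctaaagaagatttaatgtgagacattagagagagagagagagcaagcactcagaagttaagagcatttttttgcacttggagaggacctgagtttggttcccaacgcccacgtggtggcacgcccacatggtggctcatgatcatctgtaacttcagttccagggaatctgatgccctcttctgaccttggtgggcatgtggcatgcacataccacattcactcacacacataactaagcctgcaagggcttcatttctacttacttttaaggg
Psme1: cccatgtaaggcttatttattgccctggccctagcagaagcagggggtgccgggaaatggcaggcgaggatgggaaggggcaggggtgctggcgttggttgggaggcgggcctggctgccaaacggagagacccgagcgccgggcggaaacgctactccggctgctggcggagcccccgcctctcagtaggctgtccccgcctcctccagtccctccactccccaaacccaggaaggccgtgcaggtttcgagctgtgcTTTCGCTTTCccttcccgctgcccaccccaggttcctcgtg
The second group holds the constitutive subunits Psmb5 (chr14:54617946-54618245, minus strand) and Psmb6 (chr11:70525107-70525406, plus strand).
Psmb5: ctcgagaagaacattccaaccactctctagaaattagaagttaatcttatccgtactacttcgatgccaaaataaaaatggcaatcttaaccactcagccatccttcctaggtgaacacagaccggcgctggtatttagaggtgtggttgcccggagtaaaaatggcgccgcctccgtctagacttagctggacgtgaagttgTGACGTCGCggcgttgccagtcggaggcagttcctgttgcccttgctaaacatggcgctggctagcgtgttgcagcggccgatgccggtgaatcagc
Psmb6: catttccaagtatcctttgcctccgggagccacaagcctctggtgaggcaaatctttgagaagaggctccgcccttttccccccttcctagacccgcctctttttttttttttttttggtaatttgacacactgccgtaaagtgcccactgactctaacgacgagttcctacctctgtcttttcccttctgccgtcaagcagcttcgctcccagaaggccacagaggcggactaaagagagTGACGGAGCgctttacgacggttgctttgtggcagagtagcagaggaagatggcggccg

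The Psmb8 window held an interferon gamma activated site 97 bases before the start, a motif found in 8.3% of all 32851 windows and in 3 of the 40 windows of 38 proteasome genes (7.5%), the others being Psmd2 and Psmg1. The Psme1 window held an interferon-stimulated response element on the minus strand 10 bases after the start, a motif found in 3.44% of all windows and in 5 of these 40 (12.5%), the others being Psmb3, Psmd4, Psmd9 and Psmg4. Neither motif occurred in the windows of Psmb9 and Psmb10. The Psmb9 window shares 275 bases with that of Tap1, which is transcribed from the other strand. Psmb5 and Psmb6 each held the antioxidant response element core, at 47 and 9 bases before the start, a motif found in 12.4% of all windows and in 6 of these 40 (15.0%). That element is bound by Nfe2l1 and Nfe2l2, factors that drive proteasome subunit genes. The ETS motif CCGGAAG was in 15 of these 40 windows (37.5%) and in 8.86% of all windows. It was in none of the windows of the catalytic subunits, where Psmb7 could not be searched. The CCAAT box was in 13 of the 40 (32.5%), Psmb9 among them, and in 37.4% of all. These are matches of letters within 300 bases and show no binding.

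The immunoproteasome subunits and the activators varied most between the 8 tissues, and the rest of the complex varied little. Across tissues 17 of 45 proteasome genes were called by limma's F test, against 73.5% of the 15180 probe sets tested. Psma8 stayed below the signal needed for testing. The median range between the highest and the lowest tissue was 1.05 on the log2 scale for the proteasome genes and 2.35 for all probe sets. It was 0.95 for the 14 core subunits other than Psmb8, Psmb9 and Psmb10 and 0.87 for the 17 ATPase and non-ATPase subunits of the regulatory particle. The proteasome values are of the brightest probe set per gene. The values for all probe sets hold dimmer ones of the same genes too and were not matched for signal. The widest ranges were those of Psmb8 (4.61, or 24.5-fold), Psmb9 (4.51, 22.7-fold) and Psmb10 (3.39, 10.5-fold). Next came all 3 activators, which open the core in place of the regulatory particle or beside it: Psme4 (3.04), Psme1 (2.82) and Psme3 (2.70). The Psme3 range ran from 1.9 to 3.53 when single arrays were left out, so its place above the median of all probe sets depended on the arrays used. Among the ring and regulatory subunits the range stayed between 0.64, for Psmd2, and 1.63, for Psmd12. The 8 widest, which also include the regulatory particle chaperones Psmd9 (1.92) and Psmd5 (1.80), all lay above every ring and regulatory subunit other than the immunoproteasome.

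**Figure D1:**
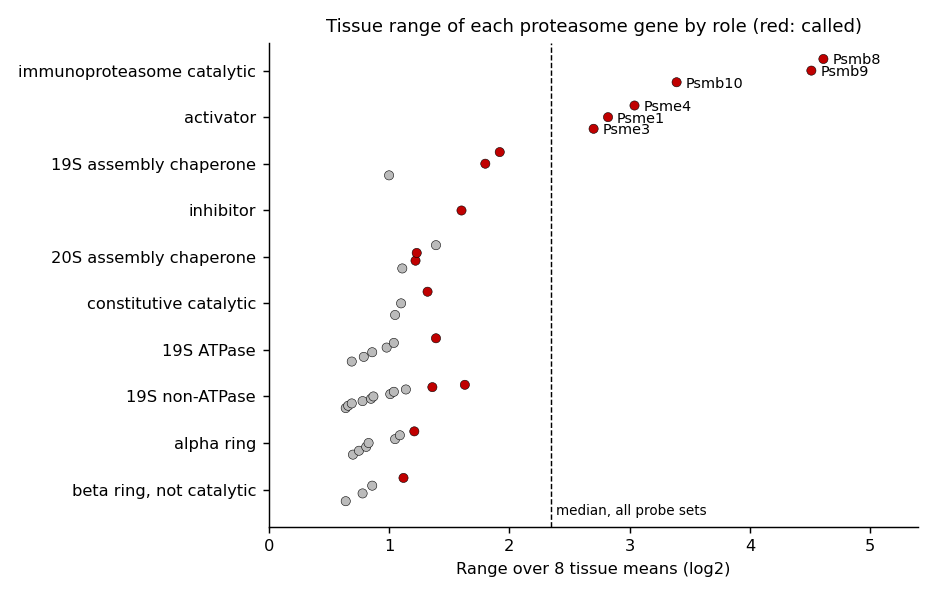
Range between the highest and the lowest tissue mean for each of 45 proteasome genes (x axis, log2), in rows by role. Each point is a gene, red where it was called by the F test over 16 arrays, and the dashed line is the median range of all probe sets tested, 2.35. Psmb8, Psmb9, Psmb10 and the activators lie to the right of that line and the other genes to its left.

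Leaving out single arrays moved the count of called genes between 10 and 16. It was 10 without the lung BIIB array and 11 without the heart BIIB array, and the genes lost were all among those with a range under 2. Psmb8, Psmb9, Psmb10, Psme1, Psme3 and Psme4 were called whichever array was left out.

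Psmb8 split the tissues into a high set (spleen, heart, labelled brain and lung) and a low set that did not overlap under either protocol. By one-cycle its signal was 24783 in spleen, 24130 in heart and 17005 in labelled brain. It was 7034 in lung, and 2511, 2460, 1956 and 755 in ovary, kidney, labelled liver and embryo. The BIIB arrays gave 48194 in spleen, 44588 in heart, 27781 in labelled brain and 11072 in lung, and between 2163 and 7777 in the other 4. Spleen and heart were therefore nearly level under both protocols, and embryo was lowest under both.

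Psmb9 followed the same pattern. Its one-cycle signal was 24187 in spleen, 18123 in heart, 16144 in labelled brain and 8359 in lung, and between 671 and 2548 in the other 4 tissues. By BIIB it was 15210 in spleen and 22352 in heart, so their order differed between the protocols. The low set lay between 875 and 3223 by BIIB, with embryo lowest again.

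Psmb10 was highest in heart, at 27392 by one-cycle and 41636 by BIIB. Labelled brain (13797 and 20056) and spleen (13424 and 18547) came next, followed by lung (9523 and 17122). Kidney was lowest under both protocols, at 2543 and 3792, where Psmb8 and Psmb9 were lowest in embryo.

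Across the 8 tissue means of log2 signal, Psmb8 correlated with Psmb9 at r = 0.98 (Spearman 0.90) and with Psmb10 at r = 0.89 (0.76), and Psmb9 with Psmb10 at r = 0.92 (0.90). Psmb8 against Psmb5, the subunit it replaces, gave r = -0.39, Psmb9 against Psmb6 gave 0.07 and Psmb10 against Psmb7 gave -0.06. These are descriptions over 8 points that share arrays and scaling. Without the 2 tissues farthest from the median, the 3 values within the immunoproteasome were 0.98, 0.96 and 0.98, and those with the constitutive partners were -0.19, -0.43 and 0.75, so the last 3 changed with the tissues used.

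The constitutive partners moved little. Psmb5 lay between 9932 (lung) and 19321 (heart) by one-cycle and between 32000 (labelled brain) and 93774 (kidney) by BIIB. Psmb6 lay between 10686 and 19191 by one-cycle and Psmb7 between 22285 and 51563. None of the 3 was called in any tissue against the mean of the other 7. There Psmb5 differed by -0.75 ± 0.25 (labelled brain, adjusted p = 0.032) to 0.45 ± 0.25 (kidney and labelled liver), Psmb6 by -0.64 ± 0.25 (lung) to 0.61 ± 0.25 (heart) and Psmb7 by -0.91 ± 0.24 (lung, 0.014) to 0.60 ± 0.24 (heart). Psmb7 alone was called by the F test, with a range of 1.32 (adjusted p = 0.035), and that call was lost without any 1 of 11 of the 16 arrays, with values from 1.17 to 1.47.

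**Figure D2:**
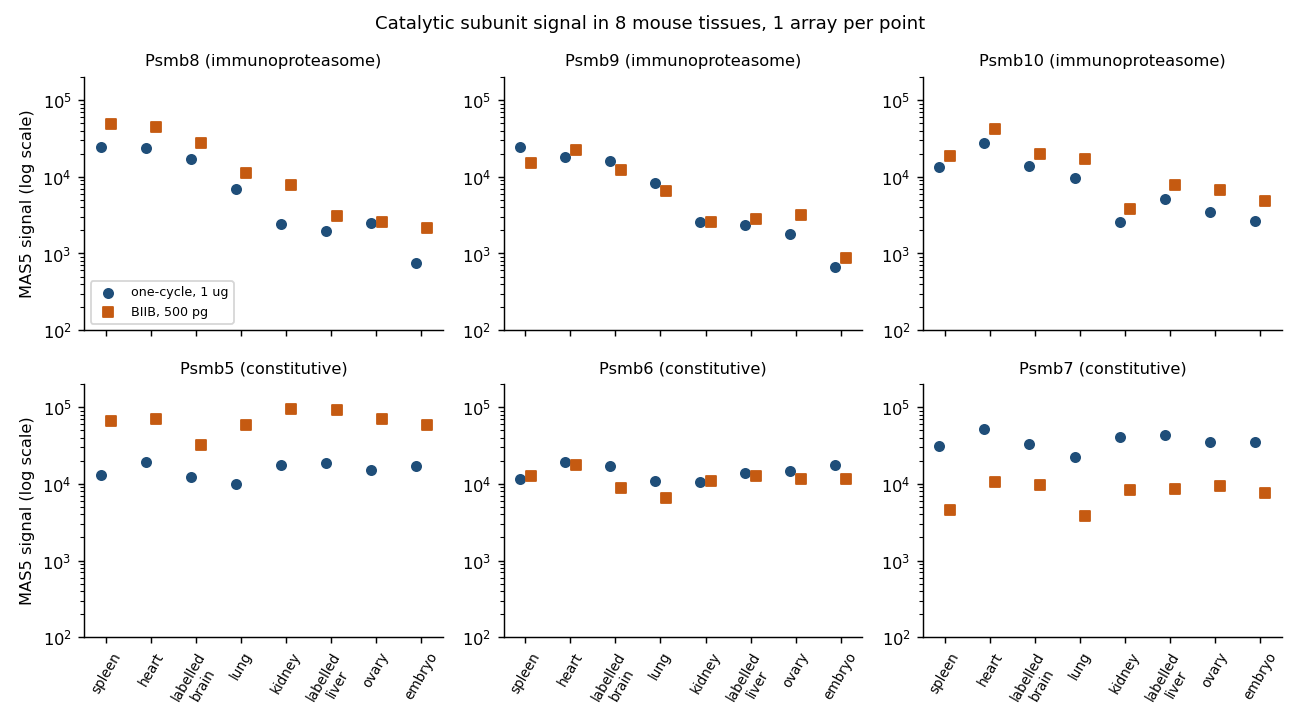
MAS5 signal (y axis, log scale) of the immunoproteasome subunits (top row) and the constitutive subunits (bottom row) in 8 tissues (x axis), 1 array per point, circles for one-cycle and squares for BIIB. Psmb8 runs from 24783 in spleen to 755 in embryo by one-cycle, while Psmb6 stays between 10686 and 19191. Psmb5 is higher and Psmb7 lower by BIIB in every tissue.

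Each tissue was then tested against the mean of the other 7, with the protocol as a term. In spleen 4 of 45 genes were called, all higher, against 34.2% of all probe sets (14.8% higher). Psmb8 rose by 2.53 ± 0.28 (SE, adjusted p = 3.7e-05) and Psmb9 by 2.11 ± 0.28 (0.00013). Psme3, the nuclear activator, rose by 1.56 ± 0.35 (0.0037), and its second probe set gave 1.77, but without the spleen one-cycle array the call was lost (1.43, adjusted p = 0.062). Psmf1, an inhibitor of the core, rose by 1.29 ± 0.23 (0.0011), with 1.61 and 1.29 at 2 further probe sets. Psmb10 stood at 0.93 ± 0.21 (adjusted p = 0.0043), short of 2-fold, and Psme1 at 0.95 ± 0.25. With quantile normalization both passed, at 1.02 and 1.08.

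Heart had the most called genes, 7 of 45, against 22.6% of all probe sets. All 3 immunoproteasome subunits rose, Psmb8 by 2.44 ± 0.28 (adjusted p = 8.4e-05), Psmb9 by 2.19 ± 0.28 (0.00017) and Psmb10 by 2.18 ± 0.21 (2.2e-05). Psme1, which pairs with Psme2 to form the interferon-inducible cap of the core, rose by 1.65 ± 0.25 (0.00059), and Psme4, a single-chain activator, rose by 1.72 ± 0.24 (0.00026). The signal of Psme1 in heart was 42399 by one-cycle and 53275 by BIIB, the highest of any tissue under both. At the other Psme4 probe sets the difference was 1.64, called, and 0.83, not called. The regulatory particle chaperones Psmd9 and Psmd5 fell by 1.38 ± 0.30 (0.0053) and by 1.37 ± 0.25 (0.0017). Psmd9 was at 1201 and 472 in heart, the lowest of the 8 tissues under both protocols, but without the heart BIIB array its difference was -0.93 (adjusted p = 0.16).

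The high immunoproteasome signal of heart and labelled brain came with a lower pan-leukocyte marker signal than in spleen. The summed signal of 7 pan-leukocyte markers was 258434 in spleen by one-cycle, 35594 in heart, 37854 in labelled brain and 42832 in lung, and between 7966 and 13162 in the other 4 tissues. By BIIB it was 264747 in spleen, 62627 in heart, 57519 in labelled brain and 99270 in lung, and 13155 to 41476 in the others. All 7 markers had a signal of at least 500 in spleen, heart, labelled brain and lung under both protocols. By one-cycle they also did in embryo, labelled liver and ovary, with 6 in kidney, and by BIIB 3 to 5 did in those 4 tissues. The mean log2 level of 7 myeloid markers was 13.64 in spleen, 13.08 in labelled brain, 12.58 in lung and 12.32 in heart. It was 10.54 to 11.58 in the other tissues. B cell markers (6 on the array) summed to 91094 in spleen and 2396 in heart by one-cycle. The mean log2 level of 7 T cell markers was 11.33 in spleen, 10.09 in heart and 9.63 in lung. It was 8.06 to 9.09 in the other tissues, labelled brain (8.84) among them. In heart 5 of these 7 markers had a signal of at least 500 under both protocols. Markers of MHC class II presenting cells summed to 306678 in spleen, 168728 in lung, 140693 in heart, 119192 in labelled brain and 4337 in embryo by one-cycle, with 5, 5, 5, 4 and 4 of 5 at 500 or more. Across the 8 tissues the mean log2 level of the 3 immunoproteasome subunits had r = 0.88 with the class II markers, 0.84 with 7 myeloid markers and 0.77 with the pan-leukocyte markers. The part of such cells in these differences was not tested, and in total RNA more expressing cells and more RNA per cell cannot be told apart.

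In labelled brain 4 of 45 genes were called, against 34.7% of all probe sets. Psmb8 rose by 1.77 ± 0.28 (adjusted p = 0.00043), Psmb9 by 1.60 ± 0.28 (0.00083) and Psmb10 by 1.02 ± 0.21 (0.0025). The Psmb10 call was lost with quantile normalization (0.92), without the labelled brain one-cycle array (0.94) and without the ovary one-cycle array (0.99). Psme3 fell by 1.53 ± 0.35 (0.0041), but its second probe set gave -0.51 and without the labelled brain BIIB array the value was -0.69 (adjusted p = 0.18). Psme1 stood at 0.67 ± 0.25 (0.052).

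Embryo stood at the other end. Its 3 called genes of 45 (16% of all probe sets were called, 5.71% lower) were the immunoproteasome subunits, and all were lower. Psmb9 fell by 2.96 ± 0.28 (adjusted p = 1.9e-05), Psmb8 by 2.74 ± 0.28 (3.6e-05) and Psmb10 by 1.46 ± 0.21 (0.00048). No other proteasome gene was called in embryo, where the other 42 differed by -0.55 to 0.65. Psme1 stood at -0.38 ± 0.25. The same 3 calls held whichever array was left out.

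Labelled liver had 5 called genes of 45, against 34.7%. Psmb8 fell by 1.76 ± 0.28 (adjusted p = 0.00042), Psme4 by 1.75 ± 0.24 (0.00011), Psme1 by 1.57 ± 0.25 (0.00044) and Psmb9 by 1.13 ± 0.28 (0.0069, and 0.095 without the labelled liver one-cycle array, at -1.01). The ATPase Psmc5 rose by 1.01 ± 0.25 (0.007), a call lost without 1 of 7 arrays (0.93 to 1.09). Psmb10 stood at -0.57 ± 0.21 (0.048), short of 2-fold. Psme1 was lowest here under both protocols, at 8254 and 5303, and so was Psme4, at 1860 and 2156.

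In kidney 2 of 45 genes were called, against 23%. Psmb10 fell by 1.70 ± 0.21 (adjusted p = 0.00011) and Psmb9 by 1.14 ± 0.28 (0.01), the latter losing its call without the kidney BIIB array (-1.12, 0.11) or the kidney one-cycle array (-1.16, 0.092). Psmb8 stood at -0.83 ± 0.28 (0.046) and Psme1 at -0.97 ± 0.25 (0.014), both short of 2-fold. In ovary 2 of 45 were called, against 15.4%. Psmb8 fell by 1.70 ± 0.28 (0.0017) and Psmb9 by 1.24 ± 0.28 (0.01). The first call was lost without the ovary BIIB array (-1.23, 0.086) and the second without the ovary one-cycle array (-0.80, 0.23). Psmb10 stood at -0.99 ± 0.21 (0.0075) and Psme1 at -0.19 ± 0.25.

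Lung, with intermediate immunoproteasome signals, differed from the mean of the other tissues by 0.30 ± 0.28 in Psmb8, 0.57 ± 0.28 in Psmb9 0.59 ± 0.21 in Psmb10 and -0.16 ± 0.25 in Psme1, none of them called. Its 2 called genes of 45 (21.4% of all probe sets were called) were Psme4, which fell by 1.14 ± 0.24 (adjusted p = 0.0042), and Psmd12, which fell by 1.00 ± 0.23 (0.0069). The other Psme4 probe sets gave -0.67 and -0.76 and were not called. Without the lung BIIB array neither gene was called (-1.11 at 0.071 and -0.80 at 0.16), and without the lung one-cycle array Psme4 was lost (-1.16, 0.051). Leaving out the labelled brain, embryo or heart BIIB array, or the labelled liver or ovary one-cycle array, also took Psmd12 below the threshold, at -1.0 to -0.97.

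A list of antigen processing genes held genes that prepare and carry MHC class I peptides and also transcription factors, Irf1 and Irf8 among them. Of its 14 tested genes 11 were lower in embryo, where 5.71% of all probe sets were, and 9 were lower in labelled liver, against 19.4%. In spleen 6 were higher, against 14.8% of all probe sets, in heart 6, against 10.4%, and in labelled brain 6, against 10.7%. In lung 3 were higher (Tapbp, Irf8 and Irf1), against 12.4%, and in ovary 2 were lower, against 6.59%. None was called by limma in kidney (2 at an unadjusted p below 0.05), where 23% of all probe sets were called. The median difference of the 14 genes was 0.97 in spleen, 0.85 in heart, 0.84 in labelled brain and 0.25 in lung, against -0.06, -0.13, -0.42 and 0.05 for all probe sets. It was 0.03 in kidney, -0.15 in ovary, -1.17 in labelled liver and -1.81 in embryo, against -0.13, 0.17, -0.11 and 0.04.

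The class I heavy chain gene H2-K1 rose by 2.18 in spleen and fell by 2.90 in embryo. Tap1 rose by 2.15 in spleen, 1.51 in heart and 1.00 in labelled brain and fell by 2.17 in embryo and by 1.30 in labelled liver. The transcription factor Irf1, which drives immunoproteasome and Tap genes, rose by 1.38 in spleen, 1.29 in heart and 1.08 in lung and fell by 1.38 in embryo and by 1.33 in labelled liver. Irf1 was not called in labelled brain (0.66), kidney (-0.76) or ovary (-0.94), where it stayed short of 2-fold. Irf8, a factor of myeloid and B cells, rose by 3.30 in spleen and 1.31 in lung and fell by 2.09 in embryo and by 1.26 in labelled liver. In heart the chaperone Calr fell by 1.00.

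Of 23 genes of the ubiquitin pathway, 9 were called in labelled liver (7 higher and 2 lower) and 4 in labelled brain (all lower), where 34.7% of all probe sets were called in each. In heart 3 were called (2 higher and 1 lower), against 22.6%, and in lung 2, against 21.4%. In embryo, kidney, ovary and spleen 1 each was called, against 16%, 23%, 15.4% and 34.2% of all probe sets. Uchl1, a ubiquitin hydrolase of neurons, rose by 5.48 in labelled liver and fell by 3.11 in spleen. Nfe2l1 rose by 1.03 in heart and fell by 1.58 in labelled brain, and the proteasome adaptor Ecpas rose by 1.07 in heart. Nfe2l2 fell by 1.65 in labelled liver.

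To set the subunit classes side by side, each array was expressed as the mean log2 difference of Psmb8, Psmb9 and Psmb10 from the 8-tissue mean of its protocol, minus the same for Psmb5, Psmb6 and Psmb7. This balance is a description with no test. By one-cycle and BIIB it was 1.98 and 1.65 in spleen, 1.51 and 1.60 in heart, 1.44 and 1.48 in labelled brain and 1.03 and 0.97 in lung. In the other tissues it was below 0, from -1.18 in labelled liver and kidney by one-cycle to -2.41 in embryo. Universal RNA gave -0.86 ± 0.08 by one-cycle (SD, n = 4) and -0.81 ± 0.13 by BIIB at 5 ng (n = 4).

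The 18 lymphocyte arrays gave a balance of 2.52 ± 1.33 (SD), with every array above 0 (0.47 to 5.38). On average the immunoproteasome part was 0.11 and the constitutive part -2.41. The mean balance thus held low Psmb5, Psmb6 and Psmb7 signals, with immunoproteasome signal close to the tissue mean. These means include arrays with Psmb5 or Psmb7 below 500, and they were not split by cell number. The 11 RAW267 arrays gave -0.63 ± 0.48 with every array below 0 (-1.75 to -0.14), from an immunoproteasome part of -1.44 and a constitutive part of -0.81. The 2 sets did not overlap.

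**Figure D3:**
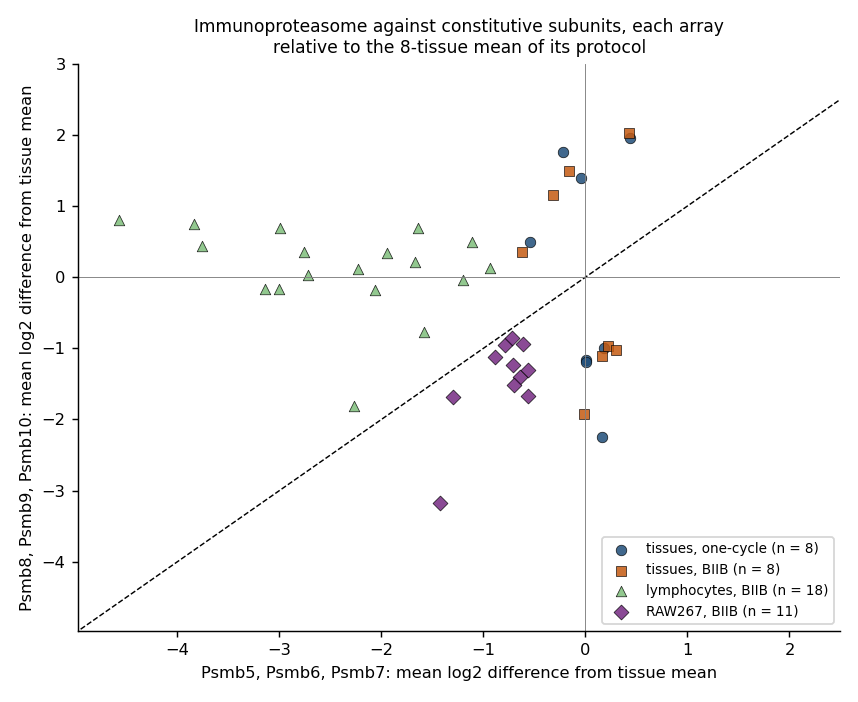
Mean log2 difference from the 8-tissue mean of the same protocol, for Psmb8, Psmb9 and Psmb10 (y axis) and for Psmb5, Psmb6 and Psmb7 (x axis), 1 point per array of tissue, lymphocytes and RAW267. The dashed line marks equal differences. All 18 lymphocyte arrays lie above it, spread to the left, and all 11 RAW267 arrays lie below it.

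In lymphocytes Psmb8 was the steadiest of the catalytic subunits, with a lowest signal of 6875, a median of 14303 and a highest of 22391 over 18 arrays and an SD of 0.51 on the log2 scale. Psmb10 ran from 2860 through 8938 to 23154 (SD 0.64). Psmb9 ran from 77.7 through 7733 to 33312 (SD 1.64), with 1 array below 500.

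Constitutive subunits scattered more. Psmb5 ran from 238 through 7257 to 28941 (SD 1.88), and Psmb7 from 19.4 through 1709 to 11064 (SD 1.89), with 2 and 5 arrays below 500. Psmb6 kept closer, from 1804 through 5972 to 15586 (SD 0.72). On the 6 arrays of 500 cells the SD was 0.50 for Psmb5, 1.09 for Psmb7 and 0.52 for Psmb8, against 2.19, 2.22 and 0.52 on the 12 arrays of 100 cells. Even at 500 cells Psmb5 (5705 to 14932) lay below all 8 tissues by BIIB (32000 or more) and below all 11 RAW267 arrays (23448 or more). Cell arrays and tissue arrays differ in input, which was not tested as a source of this gap.

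No proteasome gene was called between B and T cells. At 100 cells 0 of 46 genes were called by limma (1 at an unadjusted p below 0.05), against 0.24% of 18327 probe sets, and over all 18 arrays the slope on the share of B cells gave 0 of 46 (3 unadjusted), against 1.18% of 18354. In simulated data a change of 2 on the log2 scale was recovered for 0 of 200 genes in the B against T comparison, so changes of that size were not detectable there with these arrays.

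Psmb9 was 33312, 15252 and 24171 on the 3 arrays of T cells alone and 7450, 16668 and 2275 on the 3 of B cells alone, and the groups overlapped. Its slope from all T to all B cells was -1.93 ± 0.99 (adjusted p = 0.62). The slopes of Psmb8 and Psmb10 were -0.60 ± 0.54 and 0.48 ± 0.59, and those of Psmb5, Psmb6 and Psmb7 were 0.43 ± 1.14, 0.07 ± 0.63 and -2.05 ± 1.12. Psme1 gave 0.57 ± 0.71. Psmf1 had the largest slope among the genes with an unadjusted p below 0.05, at -2.13 ± 0.79 (adjusted p = 0.35). In antigen processing Irf8 rose with the share of B cells, by 3.08, the 1 call of 16 genes. The T cell markers summed to 154198 or more on the T cell arrays and 4683 or less on the B cell arrays. The B cell markers summed to 4090 or less and 272243 or more, so the sorted cells carried their labels' markers. The array of 500 T cells also held heart markers (mean log2 13.16, against 8.53 and 8.55 on the arrays of 100 T cells). What this adds to its proteasome signals was not tested.

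RAW267 cells showed less Psmb9 and Psmb8 and more Psmb5 than lymphocytes, a difference whose calls depended on which arrays were used. Over the 11 RAW267 arrays Psmb9 ran from 103 through 1462 to 3310 and Psmb8 from 360 through 5705 to 9826. Psmb10 ran from 3587 through 4681 to 7601, and Psmb5 from 23448 through 36368 to 45646. Psmb6 ran from 5072 through 6234 to 8774 and Psmb7 from 922 through 4876 to 7144. Psmb5 overlapped with 2 lymphocyte arrays (25234 and 28941), and Psmb8 and Psmb10 overlapped as well.

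With the 3 RAW267 arrays of 100 and 500 cells against all lymphocytes, adjusted for cell number and the share of B cells, 0 of 46 genes were called (8 at an unadjusted p below 0.05), against 11.9% of 17825 probe sets. Psmb5 differed by 2.44 ± 1.02 (adjusted p = 0.11), Psmb9 by -2.08 ± 0.90 (0.12) and Psmb8 by -1.0 ± 0.47 (0.15). Psmb10 differed by -0.66 ± 0.52, Psmb6 by 0.36 ± 0.54, Psmb7 by 1.76 ± 1.00 and Psme1 by -0.11 ± 0.63. Without the second array of 20 T and 80 B cells, on which Psmb9 was 77.7, Psmb9 was called (-2.24, adjusted p = 0.032). Without the first array of that mixture 1 gene was called, higher in RAW267. In simulated data 42 of 200 genes changed by 2 on the log2 scale were recovered here.

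With all 11 RAW267 arrays and log10 cell number as a term, 17 of 46 genes were called, 15 higher and 2 lower, against 44.4% of 16428 probe sets, of which 13.7% of the probe sets tested were higher and 30.7% lower. The 2 that fell were Psmb9 (-2.86 ± 0.56, adjusted p = 0.00015) and Psmb8 (-1.78 ± 0.37, 0.00025). The largest rise was that of Psmb5 (2.60 ± 0.63, 0.0013), followed by the ATPase Psmc3 (1.62 ± 0.52, 0.012), Psmd4, a ubiquitin receptor (1.61 ± 0.39, 0.0013), and Psmd14, the deubiquitinase of the regulatory particle (1.61 ± 0.43, 0.0033). With the arrays of 500 cells alone, an alternative chosen after seeing the data, Psmb5 was the 1 called gene (2.03 ± 0.52, adjusted p = 0.045), and Psmb9 stood at -2.08 ± 0.70 (0.095). The share of all probe sets called was not computed for the arrays of 500 cells alone. These fits share arrays. The cell number, the line and the mouse differ together between most of these arrays, and cell type and culture cannot be told apart.

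Of 16 antigen processing genes 4 were called in the fit with 3 RAW267 arrays, all lower, where 7.61% of all probe sets were lower and the median of all probe sets was -0.45. Irf1 fell by 2.69, the class I heavy chain genes H2-K1 and H2-D1 fell by 2.12 and by 1.97, and B2m, the class I light chain, fell by 1.82. Tap1 stood at -1.81 ± 0.71 (adjusted p = 0.092), Tapbp at -0.29 ± 0.56 and Tap2 at 0.45 ± 0.96, none of them called. None of 23 ubiquitin pathway genes was called by limma (5 at an unadjusted p below 0.05). Myeloid markers summed to 435417 or more on RAW267 arrays and to 109916 or less on lymphocyte arrays, and T cell markers to 3973 or less on RAW267.

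**Figure D4:**
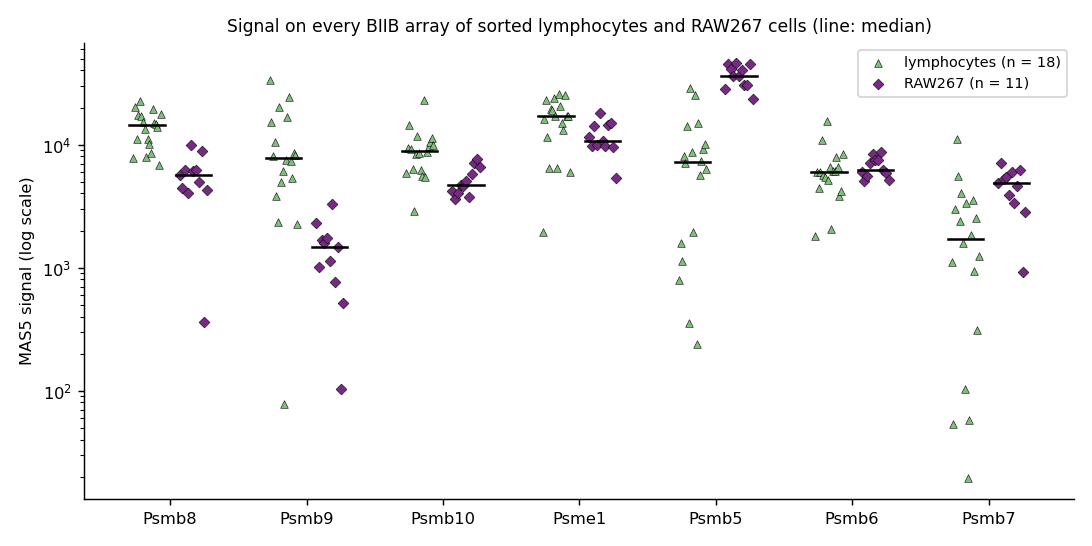
MAS5 signal (y axis, log scale) of Psme1 and the 6 catalytic subunits (x axis) on each of 18 lymphocyte arrays (triangles) and 11 RAW267 arrays (diamonds), all labelled by BIIB, with the median as a line. The RAW267 medians are lower for Psmb8 (5705 against 14303) and Psmb9 (1462 against 7733) and higher for Psmb5 (36368 against 7257).

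RAW267 cells also showed how the subunits behaved with fewer cells. From 50 to 10000 cells 0 of 46 genes had a called trend (7 unadjusted), against 2.94% of 11480 probe sets. The change was 1.64 ± 0.69 for Psmb9 (adjusted p = 0.16), 1.16 ± 0.84 for Psmb8, -0.83 ± 0.27 for Psmb10 (0.095) and 1.32 ± 0.50 for Psmb7 (0.13). The lowest Psmb8 and Psmb9 signals, 360 and 103, came from the same array of 50 cells, whose replicate gave 4244 and 517. Psmb10 was 7601 and 6606 on these arrays and 7134 on the array of 100 cells, above all 8 arrays of 500 cells or more (5734 or less). Without the array of 100 cells 5 genes were called, Psmb7 among them (1.72, adjusted p = 0.035), and without the second array of 50 cells 1 was.

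The signals of some subunits differed between the labelling protocols, and 2 sets of arrays allow this comparison. In the 8 tissues BIIB at 500 pg differed from one-cycle in 13 of 45 genes (28.9%), against 36.6% of 15180 probe sets. In universal RNA it differed in 12 of 45 (26.7%), 8 higher and 4 lower, against 40.8% of 13077 (13.5% higher and 27.3% lower). The 2 comparisons share no array. Of the called genes 8 were called in both, which is 61.5% of those called in tissues and 66.7% of those called in universal RNA, and all 8 had the same sign. The other called genes were 5 in tissues alone and 4 in universal RNA alone. Over the 45 genes the sign was the same for 41, with r = 0.95 and a Spearman rho of 0.92, across genes, which are not independent replicates. The same overlap and correlation were not computed over all probe sets, so these values do not show whether the match is particular to proteasome genes.

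The catalytic subunits went opposite ways. Psmb5 was 14084 ± 1099 by one-cycle and 55571 ± 9202 by BIIB at 500 pg in universal RNA (SD, n = 4), and it was higher by BIIB in each of the 8 tissues, by 1.96 ± 0.15 in universal RNA and 2.09 ± 0.17 in tissues. Psmb7 was 37346 ± 1649 by one-cycle and 7918 ± 1113 by BIIB and was lower by BIIB in each tissue, with differences of -2.23 ± 0.14 and -2.24 ± 0.16. The largest rise was that of the ATPase Psmc1, at 2.59 ± 0.13 and 2.74 ± 0.14. Psmb3, a beta subunit, rose by 2.15 ± 0.16 and 2.59 ± 0.19 at its brightest probe set, but its other probe set was called the opposite way (-2.39 in universal RNA), so no direction can be given for the gene. The immunoproteasome subunits were not called in either set. Psmb8 differed by 0.42 ± 0.22 and 0.85 ± 0.19, Psmb9 by -0.17 ± 0.31 and 0.04 ± 0.19, and Psmb10 by 0.45 ± 0.18 and 0.67 ± 0.14. Psmb6 gave -0.42 ± 0.18 and -0.35 ± 0.17, and Psme1 -0.02 ± 0.17 and -0.14 ± 0.17.

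**Figure D5:**
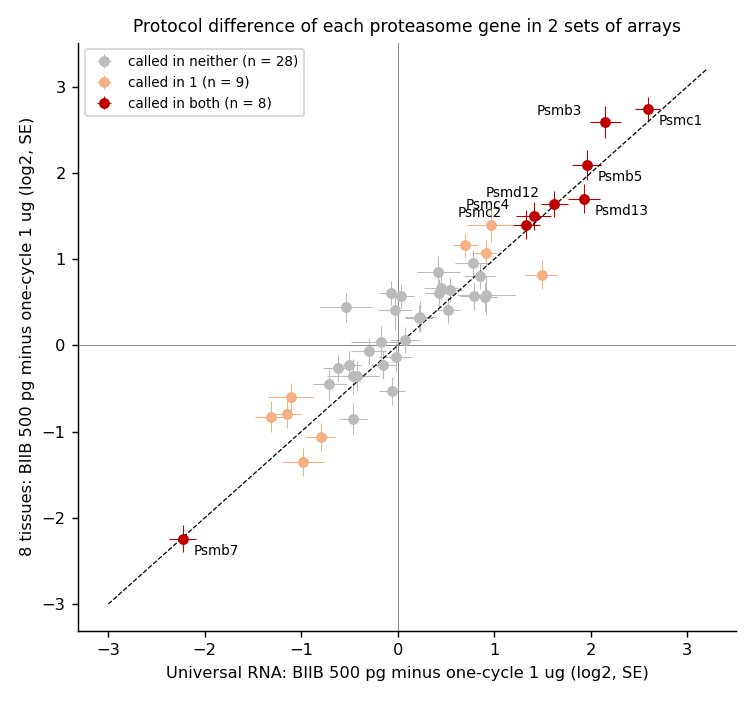
Difference BIIB 500 pg minus one-cycle (log2 ± SE) of 45 proteasome genes in universal RNA (x axis, 4 against 4 arrays) and in 8 tissues (y axis, 8 against 8 arrays). Red points were called in both sets (8 genes), orange in 1 set (9 genes) and grey in neither (28 genes), and the dashed line marks equal differences. Psmb7 lies at the lower left (-2.23 and -2.24) and Psmc1 at the upper right (2.59 and 2.74).

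The kits at 500 ng were tested against the same 4 one-cycle arrays, which these comparisons share. Two-cycle called 1 of 45 genes, Psmb2, which fell by 1.17 ± 0.11 (adjusted p = 0.00014), against 11.6% of 13199 probe sets. Ovation called 15, 1 higher and 14 lower, against 47.1% of 13414 (15.1% higher and 31.9% lower), led by the regulatory subunit Psmd7 (-3.0 ± 0.14) and the beta subunit Psmb2 (-2.85 ± 0.13). Psmb9 fell by 1.61 ± 0.11 with Ovation, from 2068 to 2293 on the 4 one-cycle arrays to 664 and 572. RiboAmp HS called 24, 8 higher and 16 lower, against 48% of 13072 (14.1% higher and 33.9% lower). With quantile normalization it called 17, 3 higher and 14 lower, and the share of all probe sets was not computed there. Without that normalization Psme1 fell by 3.88 ± 0.16 with RiboAmp HS, from 13746 to 14537 on the one-cycle arrays to 667 and 1046. Psmb8 was called with none of the kits, at 0.11 ± 0.13, -0.26 ± 0.14 and 0.32 ± 0.16. Psmb4 with Ovation, and Psmb3 and Psme4 with RiboAmp HS, had probe sets called in opposite directions.

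Less input to BIIB gave few calls and a wider spread. Against 5 ng, 0 of 45 genes were called by limma at 500 pg and 0 at 50 pg (4 unadjusted at each), against 0% of 11849 and 1.02% of 11630 probe sets, and 1 at 10 pg, against 12.2% of 11653. That gene was Psmb10, at 6287, 4672, 6988 and 5010 from 5 ng and 879, 1277, 1829 and 1104 from 10 pg, groups that did not overlap (-2.09 ± 0.42, adjusted p = 0.013). The call was lost with quantile normalization (-1.53, adjusted p = 0.081), with the replicate number as a block (-2.09, 0.078) and without any 1 of the 4 arrays of 5 ng (-2.18 to -1.99, adjusted p from 0.057 to 0.067). Without replicates 1, 2 or 3 of 10 pg, 3, 3 and 4 genes were called. Psmb8 ran from 1201 to 20077 at 10 pg and overlapped with 5 ng. Psmb9 ran from 54.1 to 1758 at 10 pg against 1822 to 3101 at 5 ng (-2.44 ± 0.76, adjusted p = 0.069). On the log2 scale the median SD of the proteasome genes between replicates grew from 0.20 (5 ng) through 0.24 (500 pg) and 0.56 (50 pg) to 1.43 (10 pg).

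The kits at 50 pg were tested against 500 ng of the same kit. Two-cycle called 0 of 45 genes by limma (11 unadjusted), against 0.193% of 16096 probe sets. Leaving out either array of 50 pg, which left 1 array in that group, raised this count. Ovation called 17, all lower, against 26.8% of 13843 (16.1% lower), with Psma7 (-4.65 ± 0.63, adjusted p = 0.004), Psmb6 (-4.28 ± 0.79) and Psme1 (-4.16 ± 0.58) among them, and 0 without either array of 500 ng. It called 11 without either array of 50 ng. RiboAmp HS called 4, against 14.2% of 15329: Psmb8, Psmg3 and Psma7 fell and Psmd3 rose, and without either array of 500 ng none was called. Psmb8 with RiboAmp HS was 4405 and 5644 at 500 ng and 203 and 224 at 50 pg (-3.92 ± 0.63, adjusted p = 0.021). The RiboAmp HS count rose when either array of 50 pg was left out, which left 1 array in that group. It fell without any 1 array of 5 ng or 500 pg. The share of all probe sets called was not computed for fits with an array left out. These fits pool arrays of unlike spread, the median SD of the proteasome genes being 0.06 to 0.13 at 500 ng and 0.79 to 1.61 at 50 pg, and the fit assumes 1 variance for them.

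Of the pair that match the rule by spelling alone, Psmc3ip, a meiotic recombination factor, rose by 2.12 ± 0.51 in spleen (adjusted p = 0.0061), with a range of 3.09 over tissues. Psme3ip1 was called in no tissue.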

How the data were processed

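RNA was measured on 103 Affymetrix arrays with 22690 probe sets. The deposited intensity values are MAS5 signals on a linear scale, per the submitters' processing notes, and the authors had scaled each array to a trimmed mean of 2500.23 to 2502.45 (2% trimmed at each end, measured on the values). MAS5 settings and version are not given in the sources used here. All arrays were set to 2501, 64 control probe sets were left out, and values were tested as log2(signal + 125) with limma 3.58.1 in R 4.3.3, on probe sets with a mean signal of at least 500 over the arrays of a fit, with Benjamini-Hochberg adjustment over all of them. Tissue fits held tissue and protocol as terms, B against T was fitted over the 12 arrays of 100 cells, the slope also held the cell number, the kits at 50 pg were fitted over all 5 inputs of a kit, and the other fits held the groups compared. Gene names came from the platform annotation, of which 85 probe sets matched RefSeq. The members and the gene lists were chosen with earlier results of these data known. The genes named were the catalytic subunits and Psme1 in every biological comparison, with up to 5 called members each way, or 4 between protocols and inputs. Alternatives were another pseudocount (32), quantile normalization, no filter, the mean of all probe sets, a replicate block and leaving out arrays. For BIIB inputs against 5 ng, a block of replicates 1 and 2 against replicates 3 and 4 was also fitted. The scripts were tested on simulated data. Replicate numbers paired the samples by the stated check in 1 comparison, BIIB 500 pg against 5 ng (correlations of deviations 0.20, 0.11, 0.12 and 0.12), where the replicate block also called 0 genes. The number of arrays limits the precision.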

Additional observations from a re-analysis of the deposited data

Results flagged for a closer look

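The signals of the catalytic subunits and Psme1, and the balance of the immunoproteasome against the constitutive subunits, were examined in each group of 4 universal RNA arrays. Of these 56 sets of 4 values, 2 held an array far from the other 3, where chance gives about 1 in 20. Psmb9 on the third one-cycle array of universal RNA was 2292.7, against 2067.9 to 2097.5 on the others, a gap of 0.868 of the range. Psmb5 on the third BIIB array of 500 pg was 69335.4, against 50228.3 to 51888.8, a gap of 0.913 of the range.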

How the results depend on the processing

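Counts of called proteasome genes stayed within 1.5 times under 113 of 121 alternatives. The exceptions were 11 for the F test over tissues without the filter (17 with it), 1 in lung with the mean of all probe sets and 1 without the arrays labelled brain and liver (2 otherwise), 17 for RAW267 against lymphocytes with all 11 RAW267 arrays and 1 with 500 cells alone (0 otherwise), 0 for BIIB at 10 pg with quantile normalization and 0 with the replicate block (1 otherwise), and 11 for Ovation at 50 pg with the mean of all probe sets (17 otherwise). The replicate block changed no other count by over 1.5 times. With the mean of all probe sets, the sign turned for Psmb3 with BIIB in universal RNA (-0.12), Psmb4 with Ovation (0.44) and Psmb3 with RiboAmp HS (-0.52), whose probe sets were called in opposite directions. Leaving out single arrays gave 10 to 16 for the F test, 3 to 4 in labelled brain, 3 to 3 in embryo, 6 to 7 in heart, 1 to 3 in kidney, 4 to 5 in labelled liver, 0 to 2 in lung, 1 to 3 in ovary, 4 to 5 in spleen and 12 to 14 between protocols in tissues. In cells it gave 0 to 0 for B against T and for the slope, 0 to 1 for RAW267 against lymphocytes and 0 to 5 for the RAW267 trend. In universal RNA it gave 12 to 15 for BIIB against one-cycle, 1 to 1, 13 to 16 and 22 to 25 for two-cycle, Ovation and RiboAmp HS at 500 ng, 0 to 0, 0 to 0 and 0 to 4 for BIIB at 500, 50 and 10 pg, and 0 to 36, 0 to 25 and 0 to 21 for two-cycle, Ovation and RiboAmp HS at 50 pg. Except with all 11 RAW267 arrays, the share of all probe sets called was not computed for the alternatives or with an array left out. These counts therefore describe stability alone. The cause was not tested. Over all probe sets the median difference between RAW267 and lymphocytes was -0.45, and -0.01 after quantile normalization. In labelled brain it was -0.42, and -0.18 after it. Low signals at 50 pg or 50 cells and below limit what could be measured.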

Other observations

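Universal RNA labelled by BIIB from 100 pg split by replicate number in several subunits. Psmc1 was 61849 and 56896 on replicates 1 and 2 and 24443 and 25370 on replicates 3 and 4. Psmb10 was 9958 and 9343 against 3821 and 2755, and Psme1 was 26990 and 24662 against 14267 and 13986. Psmc3 did not split at 100 pg but did at larger inputs. It was 24208 and 23130 against 17424 and 15695 at 5 ng, and 31908 and 25861 against 18254 and 17882 at 1 ng. The splits were noticed after the values were seen and were not tested.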
